A study of Mus musculus with 4 samples.

Results

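Remote mid-width H3K9ac peaks are described here, that is, stretches of chromatin in aorta macrophages that carried different amounts of acetylated histone H3 lysine 9 after the 2 exposures and that lie far from any other such stretch. They were taken from the deposited list of 20943 differential H3K9ac peaks by 2 measures of position. A peak had to be wider than 250 bp and no wider than 1000 bp, and the gap to the nearest other peak of the list, on either side, had to exceed 100 kb. This gave 1831 peaks, 8.74% of the list, 13.2% of its 13846 mid-width peaks and 20.4% of the 8993 mid-width peaks that touch no other peak. The list as held here has fewer peaks than the study counts, so a gap over 100 kb is one within this list. The rule did not use the direction of the difference. C57BL/6J mice were kept for 20 weeks in room air (RA) at 21% oxygen or in chronic intermittent hypoxia (CIH), in which 90 s at 6.1% oxygen alternated with 90 s at 21% oxygen. CD11b-positive cells were selected with magnetic beads from digested aortas and profiled by ChIP-Seq, with 4 libraries in all, 1 per mark (H3K9ac and H3K27me3) and exposure. There was thus no replicate, and every direction below compares 1 library with 1 library.

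H3K9ac marks active promoters and enhancers, where acetylation loosens the hold of histones on DNA and is read by bromodomain proteins. H3K27me3 is laid down by Polycomb repressive complex proteins and marks silenced genes. Macrophages of the vessel wall take up lipoproteins and secrete cytokines, and intermittent hypoxia models the oxygen swings of sleep apnea. A bulk library cannot tell a larger share of cells that carry a mark from more of the mark per cell. The list gives a position and a direction for each peak but no counts, so no depth per peak and no fold change is given here. Whether the selected cells carried macrophage markers could not be checked from a list of differences. Of 35 marker genes of 7 cell types none was paired with a remote peak. Only 9 genes were paired with any in H3K9ac, so this count says nothing about the cells.

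Of the remote peaks, 5 could be read as DNA in the part held of the study's table that pairs H3K9ac peaks with genes. They are shown because they are the remote peaks with both a gene and a sequence. Each line gives the gene or genes, the position on the mouse build mm9 (plus strand) and the first 200 bases of the peak, or, for Fgf8 and Fbxw4, the first 122 bases, after which the table has N in place of bases. Capitals mark CG dinucleotides, the sites of DNA methylation in mammals.
6530403H02Rik, higher in CIH, chr3:119485351-119485550: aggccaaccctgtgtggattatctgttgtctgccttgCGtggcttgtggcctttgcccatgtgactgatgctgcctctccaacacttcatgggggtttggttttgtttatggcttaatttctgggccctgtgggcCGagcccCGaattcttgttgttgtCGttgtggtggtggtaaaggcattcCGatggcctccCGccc
Fgf8 and Fbxw4, higher in CIH, chr19:45734101-45734222: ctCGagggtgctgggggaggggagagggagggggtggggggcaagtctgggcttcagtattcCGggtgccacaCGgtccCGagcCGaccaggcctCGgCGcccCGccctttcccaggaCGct
Tectb, higher in RA, chr19:55173501-55173700: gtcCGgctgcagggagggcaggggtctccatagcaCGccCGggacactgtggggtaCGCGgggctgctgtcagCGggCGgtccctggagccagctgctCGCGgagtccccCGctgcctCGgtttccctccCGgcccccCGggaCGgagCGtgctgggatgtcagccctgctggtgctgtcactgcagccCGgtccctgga
Sclt1 and D3Ertd751e, higher in RA, chr3:41545451-41545650: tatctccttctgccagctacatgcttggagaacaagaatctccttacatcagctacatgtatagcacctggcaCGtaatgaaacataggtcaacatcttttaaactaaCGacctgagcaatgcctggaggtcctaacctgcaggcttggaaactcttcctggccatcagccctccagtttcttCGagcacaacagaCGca
Inadl, higher in RA, chr4:98103501-98103700: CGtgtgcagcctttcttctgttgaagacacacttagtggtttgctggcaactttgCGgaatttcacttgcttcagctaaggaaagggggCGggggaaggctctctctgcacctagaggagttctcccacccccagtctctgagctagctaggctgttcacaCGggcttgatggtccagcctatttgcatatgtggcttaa

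The 5 sequences fell into a GC-rich and a GC-poor set. Over the 399 letters that the table gives of each, N left out, the GC content was 75.2% in the Tectb peak, 73.9% in the Fgf8 and Fbxw4 peak and 64.3% in the 6530403H02Rik peak, with 41, 40 and 33 CG dinucleotides. In the Inadl and Sclt1 peaks it was 44.9% and 44.4%, with 5 and 11 CG dinucleotides. The 219 other mid-width peaks of the table had a median of 54.9% GC (34.3 to 76.8%) and a median of 17 CG, so the members lay on both sides of it and inside its range. The GC-rich set held peaks of either direction. The Tectb peak contains promoter sequence of the gene model Gm31356 (RefSeq, GRCm38.p6, an identical run of at least 40 bases on the same chromosome). It was 1 of 5 members with such a match, against 55 of the 219 other mid-width peaks (25.1%). All 160 matches between table peaks and promoters were in the orientation of the plus strand, which is why the sequences are given as plus strand.

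In all, 3 motifs were searched on both strands of the same 399 letters, with N in a motif standing for any base. The form ACGTG of the hypoxia response element core was found in the Sclt1 peak only, 1 of 5 members. Its reverse complement stands in the printed bases there. It was in 28.1% of the 474 table sequences of that length. The form GCGTG, which the printed bases of the 6530403H02Rik and Tectb peaks hold, was not searched. The ETS core GGAAGT, part of the sites of the macrophage factor PU.1, was found in the Inadl peak only, also 1 of 5, against 28.3% of all. The AP-1 site TGANTCA was in none of the 5 and in 9.92% of all. A match is a run of letters and not a bound site.

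The peaks paired with genes are thus few. The held part of the table has 224 mid-width peaks and 5 of them (2.23%) were remote, 3 higher in RA and 2 higher in CIH, against 13.2% of the mid-width peaks of the whole list. Per the methods of the table, it keeps the peaks with the most reads, and its 5 remote peaks were 900 to 1000 bp wide, against a median of 450 bp over all remote peaks, so they are no even sample of them. The study's text names 4 H3K9ac peaks by number, and 2 of those, at Il6 and Lrtm2, were remote. The other two, at Foxo4, a forkhead transcription factor gene, and Abca1, the cholesterol efflux transporter gene, were not, since the former lay 32.2 kb from its neighbour and the latter touched one. These pairings were the authors' own, and a remote peak without a gene here may stand in the rest of the table, which was not used here.

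Il6, the gene of the inflammatory cytokine interleukin 6, had a remote peak of 700 bp higher in CIH on chromosome 5 from 30320201 to 30320900. The nearest peak on its left was 128.05 kb away, 900 bp wide and higher in CIH. On its right the next peak was 159.65 kb away, 1300 bp wide and also higher in CIH. Each of them adjoins a further peak that was higher in RA. Peaks that touch each other alternate in direction by the way the list was built. Within 1 Mb of the Il6 peak the list held 18 others, of which 11 were higher in CIH and 7 in RA. Il6 was the one gene of 29 cytokine, Toll-like receptor and NF-kB genes that was paired with a remote peak. It entered through the study's text and not through the part of the table held. The authors had picked Il6 for its known role in macrophages and for its increased expression after CIH. None of 24 lipid handling and nuclear receptor genes and none of 19 hypoxia response genes was paired with a remote peak. These counts rest on the 9 genes paired with a remote peak and say nothing about the other genes of the lists.

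Lrtm2, which encodes a membrane protein with leucine-rich repeats, had a remote peak of 650 bp higher in RA on chromosome 6 from 119282701 to 119283350. Its nearest neighbour, 145.1 kb to the right, was 700 bp wide and higher in CIH, and the neighbour 156.6 kb to the left was 550 bp wide and higher in RA. The Lrtm2 peak thus stood between peaks of opposite direction, the Il6 peak between peaks of its own.

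The 2 table peaks higher in CIH were both among neighbours of the same direction. The 6530403H02Rik peak, 1000 bp wide on chromosome 3 from 119485351 to 119486350, was the most isolated of the 7, with the nearest peak 414.6 kb away on the left and the next 671.65 kb away on the right. Both were higher in CIH and were 350 and 450 bp wide. The peak paired with Fgf8, a fibroblast growth factor gene of the developing embryo, and Fbxw4, an F-box protein gene, was 950 bp wide on chromosome 19 from 45734101 to 45735050. It lay 123.25 kb from a peak of 250 bp and 295.15 kb from one of 600 bp, each higher in CIH, the narrower of which adjoins a peak higher in RA. Its surroundings were the fullest of the 7, with 31 other peaks within 1 Mb.

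Of the 3 table peaks higher in RA, the Sclt1 peak had neighbours of its own direction and the other two had 1 neighbour of each. Tectb encodes beta-tectorin of the tectorial membrane in the inner ear, and its peak of 900 bp on chromosome 19 from 55173501 to 55174400 had a CIH neighbour 345.95 kb to the left and an RA neighbour 448.1 kb to the right. With 9 other peaks within 1 Mb it had the emptiest surroundings of the 7. The peak paired with Sclt1, a gene of the appendages of the centriole, and D3Ertd751e was 1000 bp wide on chromosome 3 from 41545451 to 41546450, with gaps of 198.75 and 844.6 kb. Inadl encodes a scaffold protein of tight junctions, and its peak was 1000 bp wide on chromosome 4 from 98103501 to 98104500, with gaps of 191.55 kb to a CIH peak and 146.5 kb to an RA peak.

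**Figure D1:**
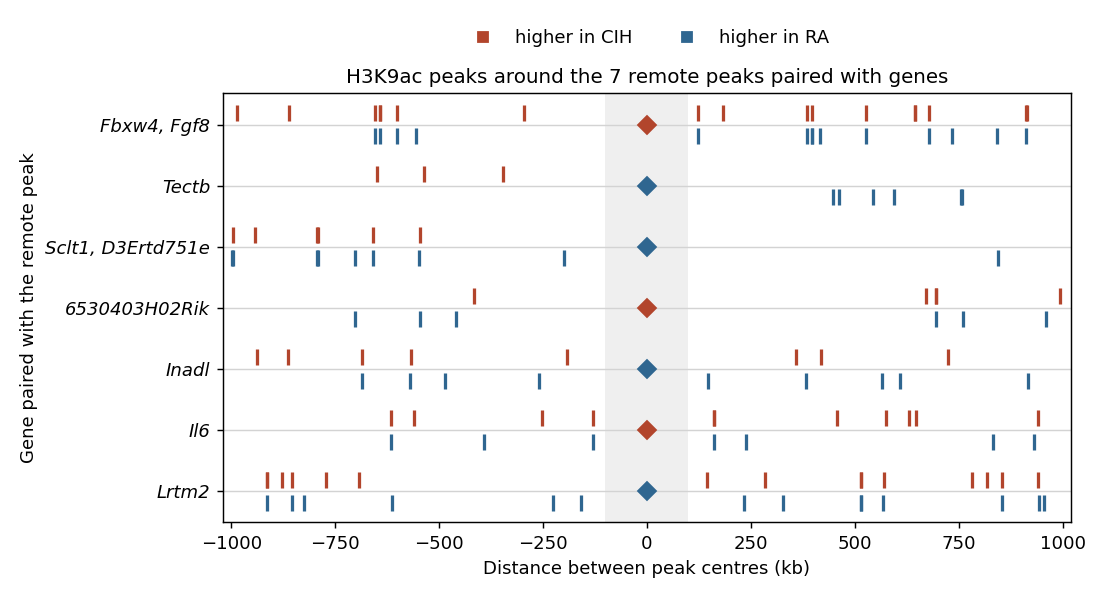
Distance in kb (horizontal axis) from the centre of each of the 7 remote peaks paired with genes (diamonds, 1 row per peak) to the centres of all other H3K9ac peaks within 1000 kb, as ticks above the line where higher in CIH (red) and below it where higher in RA (blue). The grey band covers 100 kb on either side and holds no tick, and the rows hold between 9 ticks (Tectb) and 31 ticks (Fbxw4, Fgf8).

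Of the 1831 remote peaks, 831 carried more H3K9ac in CIH and 1000 more in RA. The CIH peaks made up 45.4% (exact Clopper-Pearson 95% interval 43.1 to 47.7%), against a background of 45.4% for the whole list, and the RA peaks the rest, against a background of 54.6%. The remote peaks as a group thus had the same split as the list to the digits given. These intervals, and those below, cover counting error only, treat peaks as independent and say nothing of how the share would vary between mice. The 7162 other mid-width peaks that touch no other peak, called other standalone peaks below, had 45.0% higher in CIH (43.8 to 46.2%). The difference between remote and other standalone peaks was 0.384 percentage points (Newcombe 95% interval -2.16 to 2.94), which the counting error covers. Mid-width peaks that touch another peak had 57.2% higher in CIH (55.8 to 58.6%). Touching peaks alternate in direction by the way the list was built, so they were not taken as the comparison set.

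Remote peaks with more H3K9ac in CIH were wider than those with more in RA. Their median width was 550 bp (quartiles 400 to 700 bp, n = 831), against 400 bp (300 to 500 bp, n = 1000), a difference of 150 bp. This was not particular to remote peaks. The other standalone peaks had medians of 600 bp higher in CIH (n = 3223) and 400 bp higher in RA (n = 3939). At the narrowest width the rule allows, 300 bp, stood 341 remote peaks higher in RA (34.1% of them) and 52 higher in CIH (6.26%). Above 750 bp this turned, with 57 higher in RA (5.70%) and 164 higher in CIH (19.7%). Together the 831 CIH peaks covered 483 kb and the 1000 RA peaks 435 kb.

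Direction changed with width over the whole range of the rule. Among the 393 remote peaks of 300 bp, 13.2% were higher in CIH (10.0 to 17.0%). The share rose to 37.0% (32.4 to 41.7%) among the 430 peaks of 350 to 400 bp and to 50.9% (45.4 to 56.4%) among the 330 peaks of 450 to 500 bp. At 950 to 1000 bp it was 81.4% (70.3 to 89.7%) of 70 peaks. The remote peaks thus ran from mostly higher in RA to mostly higher in CIH within 700 bp of width, and the overall share depends on which widths are counted.

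Remote peaks were narrower than the other standalone peaks. Peaks of 300 bp made up 21.5% of the remote and 14.5% of the other standalone peaks, a difference of 6.98 points (4.98 to 9.08). The excess was 11.3 points (8.11 to 14.5) among peaks higher in RA and 1.98 points (0.338 to 3.94) among peaks higher in CIH. Peaks over 750 bp made up 12.1% of the remote and 16.7% of the other standalone peaks, a difference of -4.66 points (-6.32 to -2.87).

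Compared at the same width, remote peaks were higher in CIH more often than other standalone peaks in 6 of 8 width classes, and in 3 of them by more than the counting error. The difference was -0.0761 points (-3.80 to 4.11) at 300 bp, -1.55 points (-11.5 to 7.55) at 750 to 800 bp, 7.06 points (0.988 to 13.1) at 450 to 500 bp, 7.03 points (0.0121 to 13.8) at 550 to 600 bp and 8.72 points (0.412 to 16.4) at 650 to 700 bp. In the other 5 classes its interval held 0. With the other standalone peaks weighted to the widths of the remote peaks, in classes of 50 bp, their share higher in CIH was 40.9%, and the difference was 4.51 points (normal 95% interval over the classes 2.19 to 6.83). Leaving out each chromosome in turn kept it between 3.99 points (without chromosome 16) and 4.92 points (without chromosome 10). Without the weighting the shares were 45.4% and 45.0%, with more of the remote peaks in the narrow classes.

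**Figure D2:**
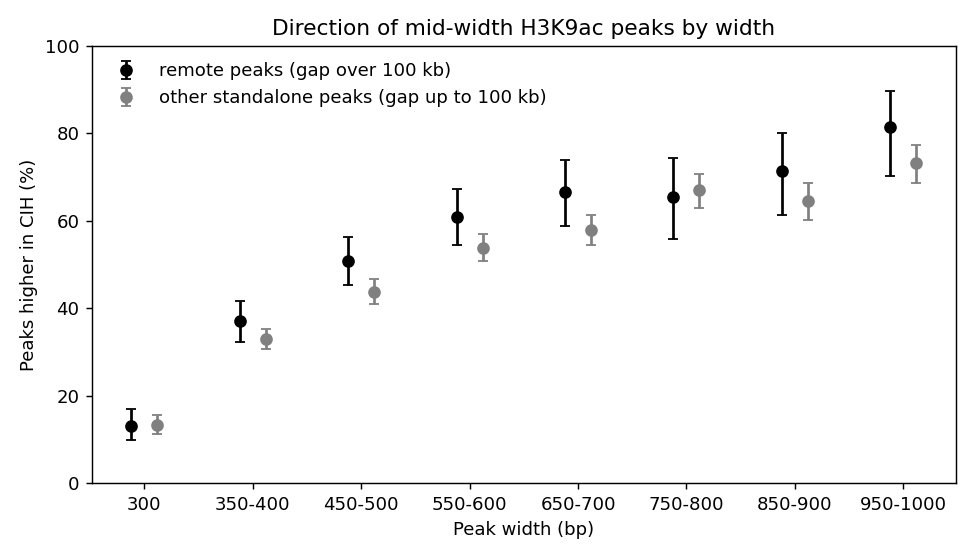
Share of peaks higher in CIH in percent (vertical axis) by peak width in bp (horizontal axis) for remote peaks (black) and other standalone mid-width peaks (grey), with exact Clopper-Pearson 95% intervals as bars. Both sets climb with width, remote peaks from 13.2% at 300 bp to 81.4% at 950 to 1000 bp and other standalone peaks from 13.3% to 73.2%.

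The gap itself had a median of 163 kb (quartiles 125 to 246 kb) and reached 2604 kb. Remote peaks higher in CIH had a median gap of 163 kb and those higher in RA of 162 kb. The gap on the farther side had a median of 361 kb. Among the remote peaks, the share higher in CIH was 45.3% (41.8 to 48.9%) at 100 to 150 kb, 41.1% (36.1 to 46.3%) at 150 to 200 kb, 46.2% (40.8 to 51.6%) at 200 to 300 kb and 48.3% (41.6 to 54.9%) at 300 to 500 kb. Of the 95 peaks with a gap over 500 kb, 52.6% (42.1 to 63.0%) were higher in CIH. All 5 intervals overlap. At the limit itself, the members just inside had gaps of 100200 bp (chromosome 10, 550 bp wide, higher in RA) and 100250 bp (chromosome 3, 450 bp wide, higher in CIH). Just outside were 2 peaks at exactly 100000 bp, on chromosomes 2 and 8, both higher in RA.

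**Figure D3:**
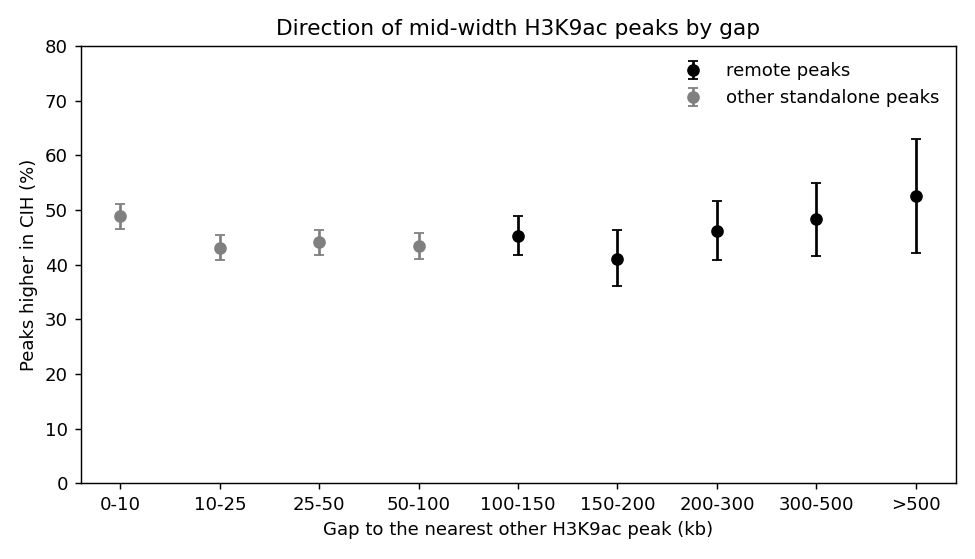
Share of standalone mid-width peaks higher in CIH in percent (vertical axis) by the gap to the nearest other H3K9ac peak in kb (horizontal axis), with exact Clopper-Pearson 95% intervals as bars and remote peaks in black. The share is 48.9% below 10 kb, 43.1% at 10 to 25 kb and between 41.1% and 52.6% in the 5 classes beyond 100 kb.

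Of the 5 largest gaps in each direction, 4 among the CIH peaks and 2 among the RA peaks lay on chromosome X. Among peaks higher in CIH they were 2603.9 kb (chromosome X from 136219851, 500 bp wide), 2253.05 kb (X from 57274601, 550 bp), 2057.95 kb (X from 48035401, 650 bp), 1542.55 kb (chromosome 6 from 68826951, 350 bp) and 1479.4 kb (X from 62657851, 400 bp). Among peaks higher in RA they were 2515.4 kb (X from 22941601, 750 bp), 1657.15 kb (X from 154036051, 600 bp), 1326 kb (chromosome 12 from 115855751, 300 bp), 1073.7 kb (chromosome 1 from 102174801, 350 bp) and 1039.15 kb (chromosome 1 from 112138551, 300 bp). A gap over 1000 kb was seen in 18 cases, 13 of them CIH peaks and 5 RA peaks.

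By chromosome, remote peaks were most numerous on chromosome 1, with 165, and chromosome 2, with 150. Chromosome 19 held 29, chromosome Y 1 and the mitochondrial chromosome none. On 13 of 19 autosomes more remote peaks were higher in RA, on 5 (chromosomes 7, 9, 13, 16 and 19) more were higher in CIH, and on chromosome 18 the numbers were equal, 34 each. The share higher in CIH ran from 35.4% (23.9 to 48.2%) of 65 on chromosome 17 to 58.6% (38.9 to 76.5%) of 29 on chromosome 19. On each of the 19 autosomes the interval held the 45.4% of all remote peaks. Chromosome 16 had 55.7% (43.3 to 67.6%) of its 70 remote peaks higher in CIH, and 41.8% of its 323 other standalone peaks, while chromosome 17 went the other way, with 35.4% of the remote and 45.4% of its 249 other standalone peaks.

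Chromosome X was emptier than any autosome. It held 1.2 peaks of the list per Mb between its first and last peak, against 7.12 to 12.1 on the autosomes, and 38 of its 76 standalone mid-width peaks were remote (50%, 38.3 to 61.7%). On the autosomes this share ran from 12.1% (9.47 to 15.1%) on chromosome 11, which had the most peaks per Mb, to 25% (21.4 to 28.8%) on chromosome 5. Of the 38 remote peaks on X, 22 were higher in CIH (57.9%, 40.8 to 73.7%) and 16 higher in RA, while 71.1% of its 38 other standalone peaks were higher in CIH. Per Mb, chromosome X held 0.237 remote peaks, and the autosomes held from 0.476 (chromosome 7) to 0.920 (chromosome 5).

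**Figure D4:**
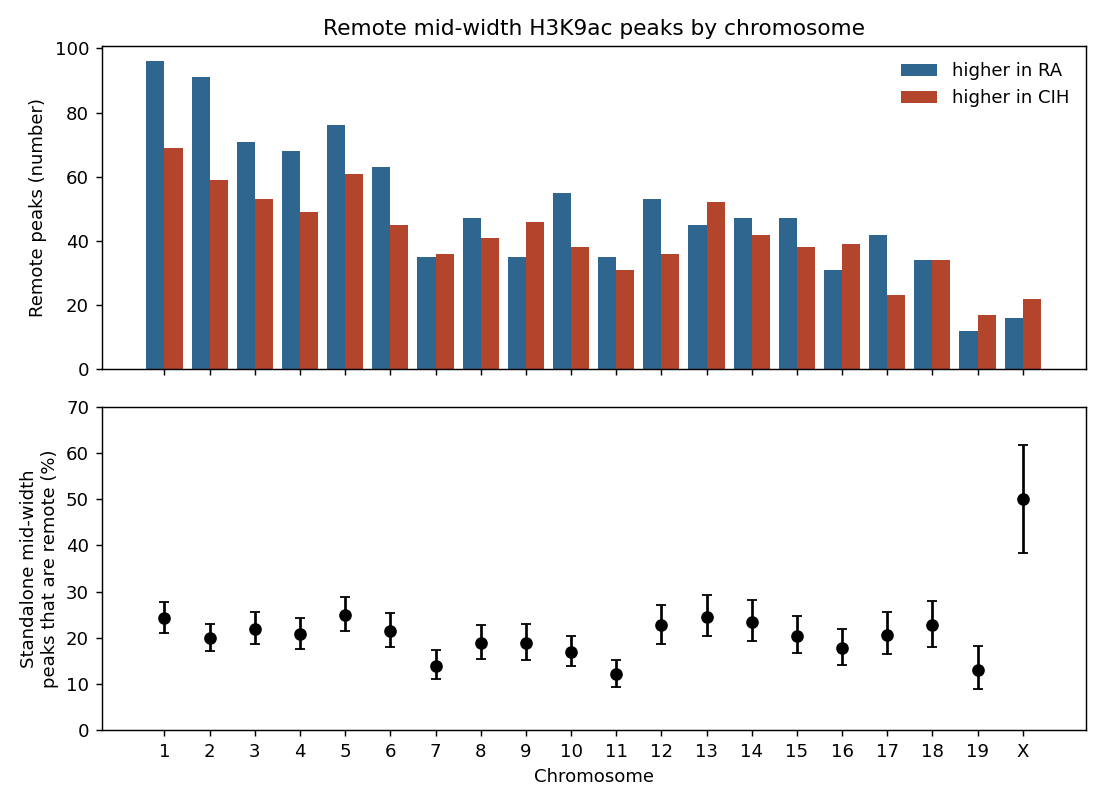
Number of remote peaks higher in RA (blue) and higher in CIH (red) by chromosome (upper panel), and percent of standalone mid-width peaks that were remote, with exact Clopper-Pearson 95% intervals as bars (lower panel). Chromosome 1 has the most remote peaks, 96 and 69, and chromosome X is the one chromosome shown at 50%, with the autosomes between 12.1% and 25%.

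The nearest other peak of a remote peak was higher in the same exposure in 969 of 1831 cases (52.9%, 50.6 to 55.2%). The share expected from the split of directions alone was not computed, so the 52.9% by itself shows no link between neighbours. In 559 of the 1831 cases (30.5%) the nearest peak was itself remote, so pairs can share peaks. The intervals here treat the pairs as independent. The nearest peak was higher in CIH for 372 of the 831 remote peaks higher in CIH (44.8%, 41.3 to 48.2%) and for 403 of the 1000 higher in RA (40.3%, 37.2 to 43.4%). The difference was 4.47 points (-0.0790 to 9.0), and its interval held 0. The nearest peak was itself 300 to 1000 bp wide in 66.8% of cases, no wider than 250 bp in 24.1% and over 1000 bp in 9.07%. In the whole list 13846 of 20943 peaks were 300 to 1000 bp wide, a share close to that 66.8%. The nearest peak touched a further peak in 16.2%. The Il6 peak had such neighbours on both sides.

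A differential H3K27me3 peak overlapped 12 remote peaks. All 12 were higher in CIH in H3K9ac, out of 831, and none of the 1000 remote peaks higher in RA overlapped one. The exact interval for that share is 0 to 0.368%, and the rougher limit of 3 counts of 1000 is 0.30%, both for counting error only. In 11 of the 12 the repressive mark was higher in CIH as well, and in 1, at Morc1, it was higher in RA. Of the 146 H3K27me3 peaks in the list, 53 had more of the mark in CIH and 93 had more in RA. The study's text reports the reverse order, with more enriched regions under CIH and fewer under RA than the 93 listed. The cause of this conflict was not tested. The H3K27me3 directions given here rest on the sign in the list, which matched the study's table for all 117 peaks held there. In all, 33 of the 146 lay on any H3K9ac peak, 12 of them (36.4%, 20.4 to 54.9%) on a remote one. Remote peaks made up 8.74% of the peaks of the H3K9ac list and 7.84% of its length. Among peaks higher in CIH, 1.44% (0.748 to 2.51%) of the remote and 0.527% (0.308 to 0.843%) of the other standalone peaks had an H3K27me3 peak, 12 and 17 in number, a difference of 0.917 points (0.224 to 2.00). These 2 sets were not matched for width, and the remote peaks were the narrower. The CIH direction was common to both sets, since 17 of the 18 other standalone peaks with an H3K27me3 peak were higher in CIH too.

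In 6 of the 12 the peaks of both marks had the same start and end, and in all 12 at least 250 bp were shared. The H3K9ac peaks were narrow, with a median of 350 bp and a range of 300 to 850 bp, and they lay on 10 chromosomes. The study's table for H3K27me3 pairs 7 of them with genes. The peak at Krtap4-2 and Krtap4-7, keratin-associated protein genes of hair, spanned 300 bp in both lists, and its nearest H3K9ac neighbour was 405.95 kb away, the largest gap of the 12. At Capn6, a calpain family gene, the shared 300 bp lay 215.9 kb from the next H3K9ac peak. The others were paired with Gm29398, with Tdrd3 and Pcdh20 (a methylarginine reader and a protocadherin), with Gjb5 and 4930471C06Rik (the former a connexin gene), with Gm4221 and with Morc1, a germ cell chromatin gene. These genes were singled out after the overlaps were seen.

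Of these stretches, 3 are shown so that the bases under both marks can be set against those of the peaks paired with genes. They are the 3 longest runs without N among the 7 H3K27me3 peaks with a sequence, given up to 300 bases, and the Morc1 run passes the end of its H3K9ac peak at 48436050. Positions are on mm9, plus strand, and capitals again mark CG dinucleotides.
Gm29398, both marks higher in CIH, chr1:150221051-150221347: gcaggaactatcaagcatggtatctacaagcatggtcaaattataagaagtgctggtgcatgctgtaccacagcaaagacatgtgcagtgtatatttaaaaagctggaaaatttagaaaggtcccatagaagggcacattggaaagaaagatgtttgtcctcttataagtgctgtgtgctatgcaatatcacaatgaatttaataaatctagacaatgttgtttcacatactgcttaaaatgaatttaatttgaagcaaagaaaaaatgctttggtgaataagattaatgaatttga
Capn6, both marks higher in CIH, chrX:140256351-140256650: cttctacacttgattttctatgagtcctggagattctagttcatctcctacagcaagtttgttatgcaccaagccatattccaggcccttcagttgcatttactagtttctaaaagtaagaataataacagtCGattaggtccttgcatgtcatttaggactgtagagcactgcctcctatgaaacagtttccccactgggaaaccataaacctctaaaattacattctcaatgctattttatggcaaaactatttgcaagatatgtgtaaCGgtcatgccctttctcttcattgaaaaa
Morc1, H3K9ac higher in CIH and H3K27me3 higher in RA, chr16:48435783-48436082: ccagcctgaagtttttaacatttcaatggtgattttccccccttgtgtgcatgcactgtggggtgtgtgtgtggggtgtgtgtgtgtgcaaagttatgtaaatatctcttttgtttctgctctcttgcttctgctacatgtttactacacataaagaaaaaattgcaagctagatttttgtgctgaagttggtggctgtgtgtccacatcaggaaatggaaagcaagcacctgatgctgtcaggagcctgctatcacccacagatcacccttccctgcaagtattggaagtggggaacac

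Set beside the 5 sequences shown first, these 3 hold 0, 2 and 0 CG dinucleotides. Over the 7 H3K27me3 peaks with a sequence, GC content ran from 33.7 to 49.6% with a median of 38.5%, and the median number of CG was 0. The 110 other peaks of that table had medians of 44.0% GC and 2 CG. These CG counts are not scaled to the bases read, which with N left out were 135 for Gm4221 and 141 for Gjb5. Letters given as N stood in 6 of the 7, Capn6 being the exception, and in 18 of the 110 others (16.4%). In the mid-width H3K9ac peaks of the other table N stood in 2 of the 5 remote peaks and in 44 of the 219 others (20.1%). What N stands for is not stated in the table, and its part in the overlaps was not tested.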

How the data were processed

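ChIP-Seq libraries (4, 1 per mark and exposure, no input) were made from aorta macrophages. The submitters' processing notes name Trimmomatic 0.32, BWA 0.7.12, SAMtools 1.2, Picard 1.121, bedtools 2.23.0, MACS2 2.1.0 and the build mm9, without their roles. Per the study's methods, blacklisted and low complexity regions were removed and the calls of more than 1 tool were combined. For each mark the authors deposited a single differential list, whose score is 1000 throughout, so a stricter score threshold could not be run. Positions fall on steps of 50 bp. The sign was read as CIH or RA from the study's tables of peaks and genes, where 483 H3K9ac and 117 H3K27me3 peaks, all those held, had the name, position and direction of a listed peak. From those tables only gene pairings and sequences were used, and the H3K9ac table is held in part.

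Gaps, widths and overlaps (at least 1 bp) were computed with Python 3.11.15, numpy 2.4.6, pandas 2.3.3 and scipy 1.17.1, after tests on simulated data. Gaps were measured within the list held here. With 1 library per group no test of the exposures is possible. Shares carry exact Clopper-Pearson intervals and differences of shares Newcombe intervals, both at 95%. Named are all remote peaks paired with a gene in the part held, those named by number in the study's text and the 5 largest gaps per direction. The members and lists were chosen with earlier results of these data known. Other gap and width limits, comparators and chromosomes left out were tried as alternatives.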

Additional observations from a re-analysis of the deposited data

How the results depend on the processing

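The share of remote peaks higher in CIH (45.4%) moved with the width limits, to 41.4% with widths up to 750 bp and 58.5% with widths over 350 bp, and with a gap over 200 kb, to 47.8%. Under the other 4 settings it stayed within its interval, and with each chromosome left out in turn it ran from 44.9 to 45.9%. The difference from other standalone peaks (0.384 points) became 2.96 points with a gap over 200 kb, 4.21 with widths over 350 bp, 4.51 at equal widths, -4.55 against all other mid-width peaks and -3.47 against those within 10 kb. With each chromosome left out in turn it ran from -0.178 to 0.765 points. With a gap over 50 kb it was -1.04. Its sign therefore turned with the gap limit, with the comparison set and without chromosome 16. The difference in median width (150 bp) fell to 100 bp with widths over 350 bp, reached 200 bp with a gap over 200 kb, and ran from 150 to 200 bp with each chromosome left out. The 12 overlaps with H3K27me3 all remained when 50% of the shorter peak had to be shared. The width weighting with each chromosome left out, and its interval, were chosen after seeing the data. A stricter score threshold could not be run because the score is constant. No paired analysis was possible because each group has 1 library. Replicate error is unknown and no input library was used. The lists carry no depth, and the sequencing yields, which the study gives as unequal between the libraries compared, were not used here. A fuller list would shorten some gaps.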

Other observations

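Many remote peaks were neighbours of each other across long empty stretches. In 952 of the 1831 (52.0%) the adjoining peak on at least 1 side was remote too, in 369 runs of 2 or more remote peaks with no other H3K9ac peak between them. The rule favours such runs, since a peak next to a remote peak already has a gap over 100 kb on that side. No expected share was computed. The longest runs had 8 remote peaks, on chromosome 1 over 5.07 Mb from 100177901 to 105243350, with 4 higher in CIH and 4 in RA, and on chromosome 5 over 1.71 Mb from 62223801 to 63931100, with 7 higher in CIH and 1 in RA. Of the 135 runs of 3 or more, 36 held 1 direction only, and of the 16 runs of 5 or more, 1 did, on chromosome 5 over 1.61 Mb from 40315451 to 41921000, where all 6 were higher in RA. These runs were picked for their length after the data were seen and carry no test. The number of runs of 1 direction expected from the split of directions alone was not computed.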
